A study of Mus musculus with 20 samples.

Results

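The genes described here are 10 genes of the incretin receptor and cyclic AMP (cAMP) pathway, taken by name from the 28632 genes of a count table made from mouse pancreatic islets. They are the glucagon-family receptors Glp1r, Gipr and Gcgr, the fatty acid receptor Ffar1, the adenylyl cyclases Adcy5, Adcy6 and Adcy8, the cAMP sensor Rapgef4 (Epac2), the catalytic subunit Prkaca of protein kinase A, and the phosphodiesterase Pde3b. All 10 were found by symbol, all were tested, and no filter on low counts was applied.

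RNA was sequenced from islets of 12-week-old male and female mice of 4 groups. In the knockouts, Ins1-Cre, which is driven from the insulin 1 locus, recombined floxed alleles of the mitochondrial fusion genes Mfn1, Mfn2 or both, so that the deletion was limited to β-cells while the islets still held their α, δ, PP and non-endocrine cells. The groups were 6 Ctrl libraries (3 female, 3 male), 4 β-Mfn1KO libraries (3 female, 1 male), 5 β-Mfn2KO libraries (2 female, 3 male) and 5 β-Mfn1/2DKO libraries (2 female, 3 male). The labels call the controls wild type, whereas the study's methods pool Ins1-Cre mice without floxed alleles and floxed mice without Cre as controls. Islets were cultured for 24 h before RNA was taken. Each library is labelled as a sample of its own, and nothing in the labels says whether mice were pooled, so p-values measure the spread between these libraries.

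Glucose metabolism in the β-cell raises ATP and calcium and so triggers insulin release, and incretin hormones amplify that release through cAMP. The receptors for glucagon-like peptide (Glp1r), glucose-dependent insulinotropic polypeptide (Gipr) and glucagon (Gcgr) couple to Gs, which activates adenylyl cyclase. The cAMP formed acts through protein kinase A and through Epac2, and phosphodiesterases such as Pde3b break it down, whereas Ffar1 (GPR40) senses long-chain fatty acids and signals mainly through Gq.

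Total counts ran from 12400687 to 20329064 in Ctrl, from 15745680 to 16685381 in β-Mfn1KO, from 15110046 to 59533407 in β-Mfn2KO and from 65533388 to 122947313 in β-Mfn1/2DKO, so depth went with genotype. Mfn1 averaged 1670 ± 114 normalized read counts in Ctrl (SD, n = 6), 674 ± 68.1 in β-Mfn1KO (n = 4) and 797 ± 165 in β-Mfn1/2DKO (n = 5). Mfn2 averaged 3505 ± 519 in Ctrl, 1577 ± 80.6 in β-Mfn2KO (n = 5) and 2084 ± 45.1 in β-Mfn1/2DKO, so the targeted transcripts went with the labels. All 10 β-cell markers, such as Ins1, Ins2, Mafa and Slc2a2, were lower in β-Mfn1/2DKO than in Ctrl (adjusted p under 0.05 in edgeR), and their summed level was 64748 to 87864 counts per 1000000 counts of the library (CPM) in β-Mfn1/2DKO against 146280 to 233866 in Ctrl. In whole islets, fewer cells of a type and less RNA per cell cannot be told apart. Markers of acinar cells passed as higher for 9 of 12 genes and markers of endothelial cells for 5 of 5. The acinar sum was 14012 and 35535 CPM in replicates 4 and 5 of β-Mfn1/2DKO and 356 to 608 CPM in its other replicates, against 5823 CPM in β-Mfn2KO replicate 4 and at most 1573 in Ctrl, so results were also computed without these 2 libraries. The α-cell markers had a summed level of 15969 to 50947 CPM in Ctrl and 32064 to 53909 in β-Mfn1/2DKO, and their median log2 fold change was 0.34. Of the δ-cell list 0 of 3 genes passed and of the PP-cell list 0 of 2. The duct list had 2 of 5 genes higher, the mesenchymal list 1 of 5 and the macrophage list 0 of 5. No defining marker of an islet cell type was at 0 in Ctrl.

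The length-adjusted levels in Ctrl spanned from the incretin receptor Glp1r, the most abundant member, to the calcium-stimulated cyclase Adcy8, the least abundant. On the scale of CPM per kilobase of exon, which allows genes to be compared, Glp1r averaged 123 ± 15.7 in Ctrl (SD, n = 6). Prkaca followed with 50.4 ± 2.3 CPM per kilobase, and its range did not touch that of Glp1r. Ffar1 had 32.8 ± 1.33 CPM per kilobase, Gipr 29.9 ± 4.13 and Adcy6 25.9 ± 2.20, and the ranges of neighbors among these overlapped. Pde3b had 18.9 ± 1.18 CPM per kilobase, Gcgr 18.2 ± 3.21 and Rapgef4 16.1 ± 1.15, again with overlapping neighbors. Adcy5, with 0.501 ± 0.187, and Adcy8, with 0.327 ± 0.0574 CPM per kilobase, lay far below the other 8 genes and overlapped each other. The raw counts behind Adcy8 were 27 to 52 per Ctrl library and those behind Adcy5 were 30 to 103, against 8164 to 12602 for Glp1r, so the values of these cyclases are the least precise.

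In β-Mfn1KO the order of the first 6 genes was that of Ctrl. In β-Mfn1/2DKO, Glp1r (111 ± 8.0 CPM per kilobase, n = 5) and Prkaca (48.7 ± 3.86) still led. Gcgr came next with 27.5 ± 4.64 CPM per kilobase, and its range overlapped that of Adcy6 (26.9 ± 1.92). Ffar1 (18.4 ± 3.35) lay below Adcy6 without overlap, while the ranges of Ffar1, Pde3b (17.6 ± 1.3) and Gipr (16.5 ± 3.86) overlapped in turn, and Gipr thus stood below Gcgr in the double mutant, whereas it stood above it in Ctrl.

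**Figure D1:**
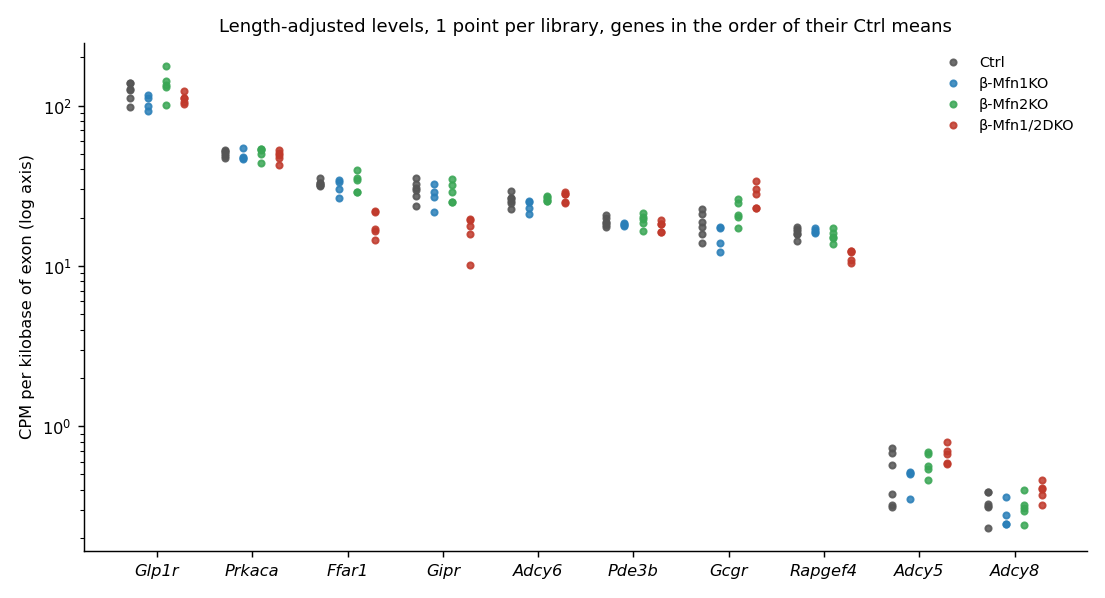
Level of each gene in CPM per kilobase of exon, on a log axis, with 1 point per library and color for the group; genes are in the order of their Ctrl means. Glp1r is highest in every group, Adcy5 and Adcy8 lie below 1 CPM per kilobase in every library, and the β-Mfn1/2DKO points of Ffar1, Gipr and Rapgef4 sit below those of Ctrl while those of Gcgr sit above.

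To see what loss of both mitofusins did to these genes, β-Mfn1/2DKO was first compared with Ctrl. Of the 10 members, 4 passed an adjusted p of 0.05 in edgeR's quasi-likelihood test across all genes. Gipr, Ffar1 and Rapgef4 fell and Gcgr rose, whereas Glp1r, the cyclases, Prkaca and Pde3b did not pass. Across all 28632 genes, 16.5% passed in this comparison, 6.86% as lower and 9.59% as higher; among the 12274 genes averaging 100 normalized counts or more, which include all 10 members, the share was 33.6%. A count of 4 of 10 is thus close to the share among genes with that minimum count. No share among genes matched in abundance was computed. With the study's additional requirement of a fold change over 1.5, 3 members were called (Gipr, Ffar1 and Gcgr), against 5.21% of all genes. The libraries of β-Mfn1/2DKO and Ctrl did not overlap for 4 members, the ones that passed, against 10.6% of all genes. The shares of 5.21% and 10.6%, and those given below for the other comparisons, are over all 28632 genes. They were not computed among genes averaging 100 normalized counts or more, where the passing share above was higher. The median log2 fold change of the 10 members was -0.07, beside 0.06 for all genes tested.

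Gipr, the receptor for the incretin released by intestinal K cells, fell to about the same extent as Ffar1. Normalized read counts in Ctrl were 3415 at the lowest, 4345 at the median and 5124 at the highest. The β-Mfn1KO libraries had 3132, 4141, 4676 and 3853, and the β-Mfn2KO libraries 5058, 4606, 3621, 4184 and 3590. The β-Mfn1/2DKO libraries had 2826, 2781, 2568, 1466 and 2278, and each of them lay below every library of the other 3 groups. Against Ctrl the change was -0.85 ± 0.14 on the log2 scale (SE, adjusted p = 1.69e-04 in edgeR), a level of 0.55 of that in Ctrl. Leaving out β-Mfn1/2DKO replicates 4 and 5, the libraries with the lowest Gipr counts and with high acinar markers, gave -0.64 (adjusted p = 0.0012, edgeR).

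Ffar1, the fatty acid receptor, had the smallest adjusted p of the members. Its counts in Ctrl were tightly grouped, with 5469 at the lowest, 5600 at the median and 6093 at the highest. They were 5739, 5186, 5943 and 4599 in β-Mfn1KO, and 6895, 6082, 4991, 5917 and 5015 in β-Mfn2KO. In β-Mfn1/2DKO they were 3805, 3761, 2861, 2932 and 2511, below every library of the other groups. Its change against Ctrl came to -0.84 ± 0.10 on the log2 scale (SE, adjusted p = 4.12e-06 in edgeR).

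Rapgef4, which encodes the cAMP-regulated exchange factor Epac2 of the insulin granule machinery, fell by a smaller amount. Ctrl libraries had 3926 normalized read counts at the lowest, 4461 at the median and 4821 at the highest. The counts were 4514, 4628, 4748 and 4444 in β-Mfn1KO and 4466, 4771, 4197, 4127 and 3773 in β-Mfn2KO. They were 3363, 3427, 3446, 2886 and 3025 in β-Mfn1/2DKO, where no library reached the lowest of any other group. The change of -0.47 ± 0.06 on the log2 scale (SE) had an adjusted p of 1.77e-05 in edgeR and, with a level of 0.72 of that in Ctrl, did not reach the 1.5-fold limit. The β-cell markers fell in the same libraries as Gipr, Ffar1 and Rapgef4, with a median log2 fold change of -1.05 over the 10 markers, and their part in these falls was not tested.

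Gcgr, the glucagon receptor, moved the other way. Ctrl libraries had 1515 normalized read counts at the lowest, 1962 at the median and 2448 at the highest. The β-Mfn1KO libraries had 1334, 1512, 1882 and 1893, and the β-Mfn2KO libraries 2818, 1874, 2178, 2682 and 2241. The β-Mfn1/2DKO libraries had 3649, 3262, 3035, 2486 and 2490; all lay above the Ctrl range, but the lower ones lay within the range of β-Mfn2KO. It was higher than in Ctrl by 0.59 ± 0.13 on the log2 scale (SE, adjusted p = 0.0022 in edgeR), a fold of 1.51 that is at the 1.5-fold limit. The summed α-cell markers of the same libraries are given above; they overlapped between the groups with a median log2 fold change of 0.34 over the list, and their part in the level of Gcgr was not tested. An antisense gene in the Gcgr locus, Gm11789, had 5.91% of the count of Gcgr without sharing exon bases with it, and whether counting used strand is not given in the sources used here.

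Glp1r did not pass. Its normalized read counts in Ctrl were 23736 at the lowest, 30317 at the median and 33437 at the highest. They were 22290, 23798, 27808 and 26991 in β-Mfn1KO and 31635, 34151, 42625, 32361 and 24411 in β-Mfn2KO. They were 29554, 26858, 26905, 24464 and 25420 in β-Mfn1/2DKO, all inside the Ctrl range. The difference from Ctrl was -0.15 ± 0.11 on the log2 scale (SE, adjusted p = 0.417 in edgeR), with a 95% confidence interval from -0.38 to 0.07, which leaves room for a modest decrease. The falls of Gipr and Ffar1 had intervals from -1.15 to -0.56 and from -1.05 to -0.63.

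**Figure D2:**
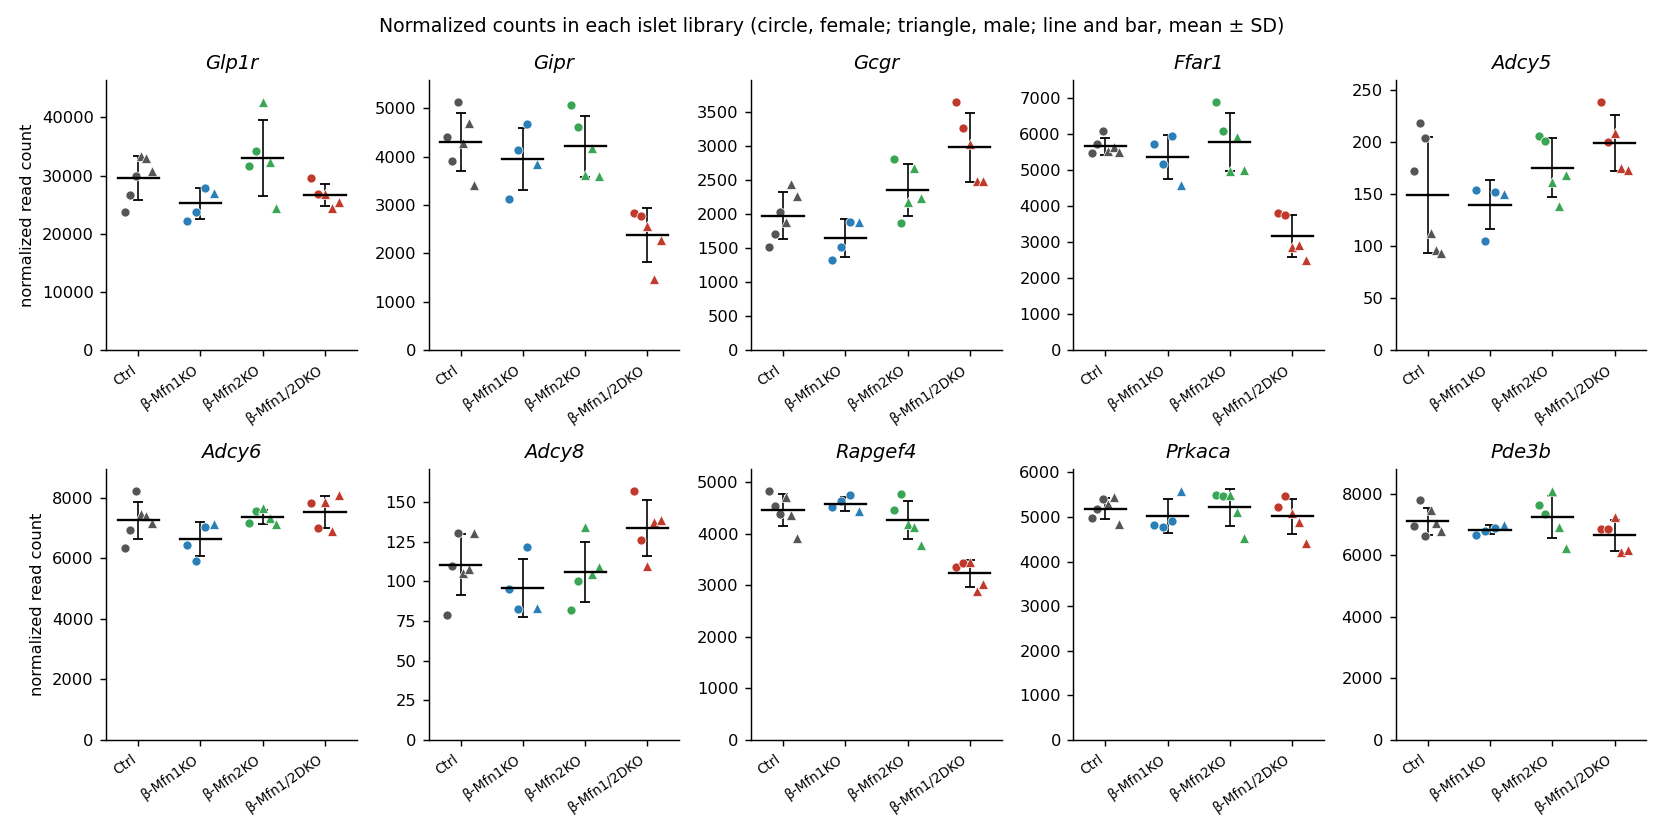
Normalized read count of each gene in each of the 20 libraries by group (circles, female; triangles, male), with the group mean as a line and the SD as a bar; axes start at 0. The 5 β-Mfn1/2DKO libraries lie apart from the 6 Ctrl libraries for Gipr, Ffar1, Rapgef4 and Gcgr and mix with them for the other 6 genes.

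Of the members with a promoter in RefSeq (build GRCm38.p6), 6 matched by symbol: Rapgef4, Ffar1, Prkaca, Gcgr, Adcy5 and Glp1r. The bases before the first annotated exon are shown for the 3 of these that passed against Ctrl and for Glp1r, which did not. They were searched on both strands for the cAMP response element (TGACGTCA), its core (TGACG), a short Maf recognition motif (TGCTGAC) and the GC box (GGCGGG), the core also being part of the full element. Capitals mark the matches, and each sequence runs 5′ to 3′ on the strand of its gene.
Ffar1, chr7:30861565-30861720, minus strand: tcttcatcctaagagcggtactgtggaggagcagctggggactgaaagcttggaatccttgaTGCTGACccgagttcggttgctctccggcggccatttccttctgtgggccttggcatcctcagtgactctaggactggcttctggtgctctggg
Rapgef4, chr2:71980965-71981214, plus strand: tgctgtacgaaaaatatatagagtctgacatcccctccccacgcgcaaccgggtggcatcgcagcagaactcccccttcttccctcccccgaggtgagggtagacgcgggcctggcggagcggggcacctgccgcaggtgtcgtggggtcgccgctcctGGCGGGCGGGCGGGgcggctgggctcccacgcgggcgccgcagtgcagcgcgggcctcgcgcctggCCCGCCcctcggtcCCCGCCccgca
Gcgr, chr11:120530477-120530698, plus strand: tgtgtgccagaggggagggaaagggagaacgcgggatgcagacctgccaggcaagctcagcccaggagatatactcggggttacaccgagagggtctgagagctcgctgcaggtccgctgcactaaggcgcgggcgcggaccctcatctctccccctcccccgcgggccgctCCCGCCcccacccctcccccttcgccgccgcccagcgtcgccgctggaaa
Glp1r, chr17:30901617-30901816, plus strand: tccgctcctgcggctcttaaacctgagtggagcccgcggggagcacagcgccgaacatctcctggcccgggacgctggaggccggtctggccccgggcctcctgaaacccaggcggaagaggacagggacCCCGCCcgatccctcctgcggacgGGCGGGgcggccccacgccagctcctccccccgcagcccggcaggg

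No member with a promoter in that table held the full cAMP response element, which 1.8% of 32851 promoters held, and its core was found in Prkaca (20.8% of all promoters). The Maf recognition motif was found in Ffar1 among the members and in 4.7% of all promoters. The GC box was found in Rapgef4, Gcgr and Glp1r, in Prkaca and in Adcy5, and in 35.3% of all promoters, but not in Ffar1. The stretch searched held 156 bases for Ffar1, against 200 for Glp1r, 222 for Gcgr and 250 for Rapgef4, so it offered fewer places for a match. A match is a description of the letters and not a sign of binding. The genes lie on different chromosomes except for Gipr, Ffar1 and Pde3b on chromosome 7 and for Adcy6 and Adcy8 on chromosome 15. In GRCm38 coordinates, Gipr spans chr7:19156061-19166127, Ffar1 chr7:30857390-30861564, Rapgef4 chr2:71981240-72257474, Gcgr chr11:120530699-120538986 and Glp1r chr17:30901817-30940791.

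Since the 3 receptors of the glucagon family were read in the same libraries, their proportions could be compared without any scaling between libraries. Per length, Glp1r made up 71.8% ± 2.33 of the 3 receptors in the 6 Ctrl libraries (SD) and 71.7% ± 2.55 in the 5 of β-Mfn1/2DKO. The share of Gipr was 17.6% ± 2.74 in Ctrl, 18.5% ± 1.66 in β-Mfn1KO, 15.7% ± 2.66 in β-Mfn2KO and 10.6% ± 1.74 in β-Mfn1/2DKO. The share of Gcgr was 10.6% ± 1.10, 10.3% ± 0.666, 11.7% ± 2.50 and 17.7% ± 1.29 in the same order. The ratio of Gipr to Gcgr ran from 1.13 to 2.19 in Ctrl, from 1.53 to 2.06 in β-Mfn1KO and from 1.17 to 1.85 in β-Mfn2KO, and from 0.444 to 0.689 in β-Mfn1/2DKO. Every islet library outside the double mutant thus held more Gipr than Gcgr per length, and every double mutant library held less. These shares are a description of genes already compared and carry no test.

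Adenylyl cyclases form cAMP from ATP, and Adcy5 and Adcy6 are inhibited by calcium whereas Adcy8 is stimulated by it. Adcy6 was the leading cyclase, with 55.4% ± 2.53 of the summed level per length of the 10 cyclases in Ctrl and 58.6% ± 0.957 in β-Mfn1/2DKO. Its counts ranged from 6356 to 8220 in Ctrl and from 6915 to 8089 in β-Mfn1/2DKO (0.05 ± 0.06 on the log2 scale, SE, adjusted p = 0.65 in edgeR). Of its length in stretches of 75 bases, 6.64% also occurs in the antisense gene Gm29331, which had 0.15% of its count. Adcy9, which is not a member and is named here for its share, held 37.9% ± 2.71 of the cyclase sum in Ctrl and 32.8% ± 1.23 in β-Mfn1/2DKO.

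Adcy5 had normalized read counts of 238, 199.6, 208.5, 174.8 and 172.6 in β-Mfn1/2DKO, with 93.4 at the lowest, 142 at the median and 218 at the highest in Ctrl. The wide Ctrl range followed sex, with 172 to 218 in the 3 females and 93.4 to 112 in the 3 males. The groups differed by 0.40 ± 0.20 on the log2 scale (SE), with an adjusted p of 0.181 in edgeR. With sex in the model, Adcy5 passed as higher, which brought the members passing to 5. Adcy8 had 157, 126, 109, 138 and 139 in β-Mfn1/2DKO and 78.5 to 131 in Ctrl (0.28 ± 0.16 on the log2 scale, SE, adjusted p = 0.281 in edgeR). The upper bounds of the 95% intervals were 0.81 for Adcy5 and 0.61 for Adcy8, so increases beyond 1.5-fold lay inside these intervals.

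Prkaca, which phosphorylates granule and channel proteins, ranged from 4853 to 5450 normalized counts in Ctrl and from 4420 to 5470 in β-Mfn1/2DKO, and its difference was -0.05 ± 0.06 on the log2 scale (SE, adjusted p = 0.661 in edgeR). Prkacb, the other catalytic subunit and not a member, fell by 0.40 on the log2 scale (adjusted p = 0.00116, edgeR). Per length, Prkaca held 52.9% ± 1.5 of the 2 subunits in Ctrl and 58.9% ± 1.81 in β-Mfn1/2DKO. Pde3b, which degrades cAMP and held 33.2% ± 1.35 of the summed level per length of 17 phosphodiesterases in Ctrl, had 6616 to 7797 counts in Ctrl and 6104 to 7259 in β-Mfn1/2DKO (-0.10 ± 0.06 on the log2 scale, SE, adjusted p = 0.358 in edgeR). Rapgef4 held 92.8% ± 1.14 of the 2 Epac genes in Ctrl and 89.0% ± 1.21 in β-Mfn1/2DKO, while Rapgef3 (Epac1), also not a member, differed by 0.22 on the log2 scale (adjusted p = 0.153 in edgeR).

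The β-Mfn2KO and β-Mfn1KO groups were compared with Ctrl to see whether loss of either mitofusin was enough. None of the 10 members passed in either comparison in edgeR, none had an unadjusted p under 0.05, and DESeq2 also passed none. Few genes passed at all, 0.0559% in β-Mfn2KO and 0.0279% in β-Mfn1KO. The log2 fold changes of the members in β-Mfn2KO ran from -0.06 for Rapgef4 and Adcy8 to 0.25 for Gcgr, whose 95% interval was -0.02 to 0.53. In β-Mfn1KO they ran from -0.26 for Gcgr (-0.55 to 0.04) to 0.04 for Rapgef4 (-0.10 to 0.18). For Gipr the intervals were -0.32 to 0.26 in β-Mfn2KO and -0.44 to 0.19 in β-Mfn1KO, and for Ffar1 -0.18 to 0.24 and -0.30 to 0.14, so falls of the size seen in β-Mfn1/2DKO lay outside them. All 3 comparisons share the Ctrl libraries.

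**Figure D3:**
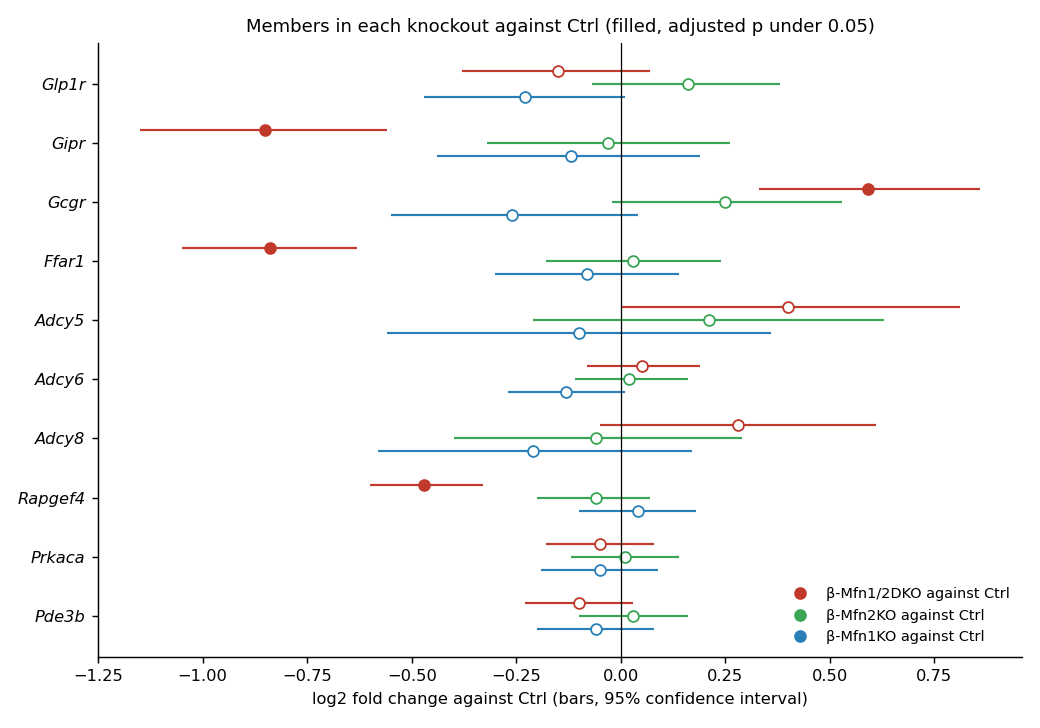
Log2 fold change of each gene against Ctrl in β-Mfn1/2DKO (red), β-Mfn2KO (green) and β-Mfn1KO (blue), with 95% confidence intervals; filled points have an adjusted p under 0.05. The only filled points are the β-Mfn1/2DKO values of Gipr (-0.85), Gcgr (0.59), Ffar1 (-0.84) and Rapgef4 (-0.47).

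Comparing β-Mfn1/2DKO with each single knockout gave the effect of the second deletion. Against β-Mfn2KO, Gipr (log2 fold change -0.82 ± 0.15, SE, adjusted p = 5.01e-04), Ffar1 (-0.86 ± 0.10, adjusted p = 7.44e-06) and Rapgef4 (-0.40 ± 0.07, adjusted p = 2.16e-04) passed in edgeR, 3 of 10 members, where 13.0% of all genes passed. Gcgr, with 0.34 ± 0.13, had an adjusted p of 0.103 in edgeR here, and it passed by total-count scaling or once β-Mfn1/2DKO replicates 4 and 5 were left out, which made 4 members. Glp1r had -0.31 ± 0.11 (SE, adjusted p = 0.0777, edgeR), and it passed in DESeq2, with a filter on low counts, with all libraries drawn down to the smallest total, and without β-Mfn2KO replicate 5, the library with the lowest Glp1r count of that group. Only 2 members, Gipr and Ffar1, passed against the 2 β-Mfn2KO libraries above 40000000 counts, the ones nearest in depth to β-Mfn1/2DKO. These β-Mfn2KO libraries were all male, whereas β-Mfn1/2DKO held both sexes. With 2 libraries in place of 5 in β-Mfn2KO, depth and the number of libraries changed together. Against β-Mfn1KO, 4 members passed, the 3 above as lower and Gcgr as higher (0.85 ± 0.15, SE, adjusted p = 2.20e-04, edgeR), where 17.4% of all genes passed.

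Whether the effect of losing Mfn1 depended on Mfn2 was tested by the interaction term, in which the change from β-Mfn2KO to β-Mfn1/2DKO is set against that from Ctrl to β-Mfn1KO. It passed for 3 of 10 members, where 5.92% of all genes passed. The difference was -0.79 ± 0.15 on the log2 scale for Ffar1 (SE, adjusted p = 0.00242, edgeR), -0.44 ± 0.09 for Rapgef4 (adjusted p = 0.00611, edgeR) and -0.70 ± 0.21 for Gipr (adjusted p = 0.0496, edgeR). Gipr lay at the threshold and lost the call when any of 14 of the 20 libraries was left out, with values from -0.79 to -0.54. It also lost the call with the replicate block (-0.64, adjusted p = 0.0628 in edgeR), by total-count scaling (-0.56, adjusted p = 0.101), with the depth class (-0.58, adjusted p = 0.232), with the normalization factors of the authors (adjusted p = 0.0677) and without β-Mfn1/2DKO replicates 4 and 5 (-0.48, adjusted p = 0.122). Rapgef4 lost the call with the depth class (-0.33, adjusted p = 0.0834 in edgeR). Gcgr had 0.59 ± 0.20 (adjusted p = 0.0775, edgeR). It passed in DESeq2 (adjusted p = 0.0341), by total-count scaling (0.73, adjusted p = 0.0268 in edgeR), without β-Mfn1/2DKO replicates 4 and 5 (0.77, adjusted p = 0.022 in edgeR), and without Ctrl replicate 1 or β-Mfn1/2DKO replicate 4. The other 6 members did not pass.

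Females and males were compared across the groups with genotype in the model. None of the 10 members passed in edgeR, where 0.126% of all genes passed, and 4 had an unadjusted p under 0.05, as had 10.6% of all genes. These were Ffar1 (0.26 higher in females on the log2 scale, adjusted p = 0.0635, edgeR), Adcy5 (0.43, adjusted p = 0.212), Gipr (0.24, adjusted p = 0.34) and Rapgef4 (0.12, adjusted p = 0.316). Within β-Mfn1/2DKO, the 2 females had 3761 and 3805 normalized counts of Ffar1 against 2511 to 2932 in the 3 males, and in every group the males averaged lower, with only 1 male in β-Mfn1KO. Ffar1 passed when Ctrl replicate 1, β-Mfn2KO replicate 4 or β-Mfn1/2DKO replicate 3 was left out.

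The genes whose pattern over the 20 libraries was most like that of each passing member were sought among the 12273 other genes that average 100 normalized counts or more. For Gipr they were Pax6 (Pearson's r = 0.960), Bcl6b (0.946) and Rimbp2 (0.941). For Ffar1 they were Ffar3 (0.952), another fatty acid receptor, Sytl4 (0.949) and Maob (0.948). For Rapgef4 they were Phactr1 (0.975), Tmem65 (0.975) and Nphp4 (0.971), and for Gcgr Rcor2 (0.923), Jakmip1 (0.921) and Insrr (0.900). After the group means were taken out, r was 0.705 to 0.934 for these pairs. The pairs were chosen by r over the same 20 libraries, so this value is not independent of the choice. Among the members, Gipr, Ffar1 and Rapgef4 were alike over the 20 libraries (r = 0.88 to 0.89 for each pair; 0.49 to 0.69 with group means taken out). The libraries share genotype, sex and depth, so these correlations are a description and carry no test.

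The wider pathway was covered by 151 other genes in 10 lists, of which 149 were in the table. In β-Mfn1/2DKO against Ctrl, 44 of the 149 passed in edgeR, 18 as higher and 26 as lower. That is 29.5% of these genes, and 38.3% of the 115 that average 100 normalized counts or more, beside the 16.5% and 33.6% of all genes given above. The share is thus near that of all genes with the same minimum count. In edgeR none passed in β-Mfn2KO or in β-Mfn1KO. By total-count scaling, which puts the median log2 fold change of genes with at least 100 raw counts on average at 0.174 in place of 0.035, the split was 43 higher and 15 lower, and the splits within lists moved with it. The values of the genes named below kept their sign under every alternative run, but most lost their call in some of them. Only Ptger3, Vipr2, Gnai2, P2ry1 and Akap13 still passed with a term for libraries above 40000000 counts. Adcy4, Sstr2 and Hcar2 also lost their calls when all libraries were drawn down to the smallest total.

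Among 16 Gs-coupled receptors, 2 rose and 2 fell, with a median log2 fold change of 0.36. That median includes genes with few counts, as Glp2r and Tshr had none in Ctrl. The summed level of the list overlapped between the groups, with 106 to 148 CPM in Ctrl and 111 to 117 CPM in β-Mfn1/2DKO. The receptors for vasoactive intestinal peptide moved apart, as Vipr2 rose from 142 ± 58.3 to 517 ± 100 normalized counts (SD; log2 fold change 1.88) and Vipr1 fell from 3614 ± 776 to 2262 ± 32.5 (-0.68). The adenosine receptor Adora2b rose by 0.80 on the log2 scale. Among 20 Gi-coupled receptors, which restrain cyclase activity, 2 rose and 4 fell. The prostaglandin receptor Ptger3 rose from 65.6 ± 24.1 to 357 ± 104 normalized counts (log2 fold change 2.43). Among genes of the 10 lists that passed and averaged 100 normalized counts or more over all libraries, this was the largest rise. Ptger3 reached that average only through β-Mfn1/2DKO, as it averaged 57.1 in β-Mfn1KO and 74.1 in β-Mfn2KO. Ffar3 (-0.99), the galanin receptor Galr1 (-0.85) and the niacin receptor Hcar2 (-0.64) fell, and the somatostatin receptor Sstr2 rose (0.63). The calls of Hcar2 and Sstr2 were lost when any of several single libraries was left out. Sstr2 lies within the locus of Slc39a11 on the opposite strand, which shares no exon bases with it but had 911% of its count. Ffar3 neighbors Ffar1 on chromosome 7, and fell beside it. Among 8 Gq-coupled and nutrient receptors 2 fell, and the purinergic receptor P2ry1 had the largest fall of the genes that passed in the lists (-1.01).

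Downstream of the receptors, 5 of 27 G protein subunits and receptor regulators rose and 4 fell, a split that was 13 to 1 by total-count scaling and 6 to 1 without β-Mfn1/2DKO replicates 4 and 5. The inhibitory subunit Gnai2 rose from 23325 ± 3419 to 49886 ± 6916 normalized counts (log2 fold change 1.10), and Gnai1 rose by 0.49. The regulators of G protein signaling Rgs2 (0.81) and Rgs16 (0.48) rose, and the subunit Gng12 fell (-0.93). Gnas, which encodes the stimulatory subunit used by all 3 glucagon-family receptors, had 66608 ± 9236 counts in Ctrl and 78093 ± 5457 in β-Mfn1/2DKO and did not pass (0.23, adjusted p = 0.0762, edgeR). It passed as higher by total-count scaling, with sex as a covariate and in some of the fits that left out a library. Of 7 further adenylyl cyclases 2 rose, among them Adcy4 (0.69, adjusted p = 0.014, edgeR), and of 16 further phosphodiesterases 2 rose and 1 fell, with the cGMP-stimulated Pde2a the largest (0.95). The endothelial markers rose in the same libraries, from a summed 115 to 172 CPM in Ctrl to 166 to 262 CPM in β-Mfn1/2DKO, and their part in the rises above was not tested.

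Of 18 genes of protein kinase A and its anchoring proteins, 2 rose and 4 fell, with the anchoring protein Akap13 the largest fall (-0.71). In the Epac branch and its granule effectors, 3 of 9 genes fell and 0 rose, but 4 rose and 0 fell by total-count scaling. The balance also turned under that scaling for protein kinase A and its anchoring proteins (5 rose, 4 fell) and for the CREB arm (7 rose, 3 fell), so no direction can be given for these 3 lists. In the CREB arm, which carries cAMP signals to the nucleus, 3 of 20 genes rose and 5 fell, among them the target Nr4a2 (-0.72) and the cAMP-responsive modulator Crem (-0.64), whose locus holds the antisense gene Gm6225 with 9.78% of its count. Of 8 genes for ligands and their processing 1 passed, the prohormone convertase Pcsk1, which fell from 28046 ± 5783 to 14328 ± 2325 normalized counts (-0.97).

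**Figure D4:**
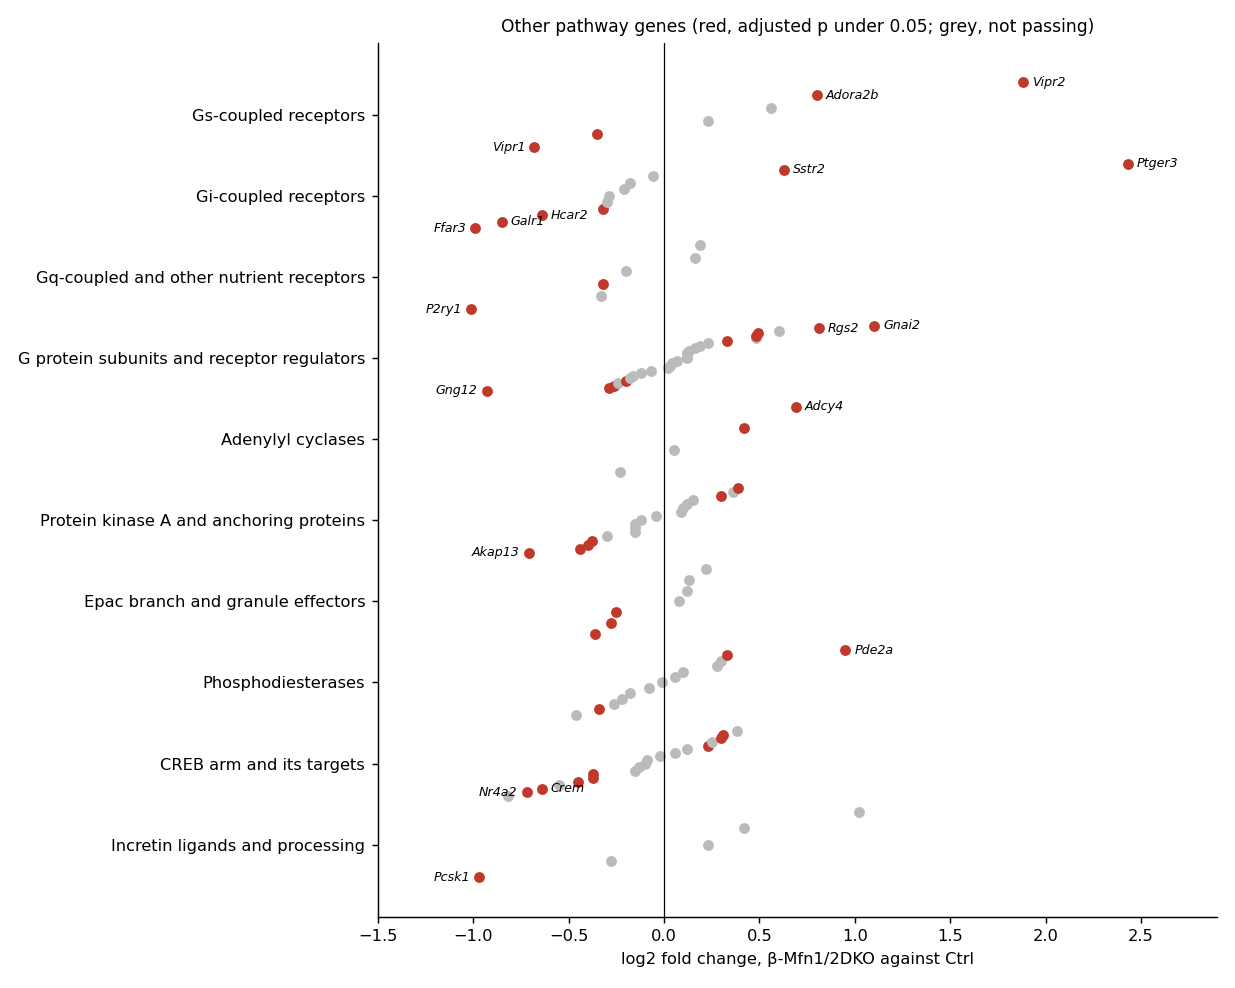
Log2 fold change between β-Mfn1/2DKO and Ctrl of the other pathway genes that average 100 normalized counts or more, 1 point per gene, in rows by role; red points have an adjusted p under 0.05 and those that passed beyond 0.6 in either direction are labeled by name. Most points lie near 0, with Ptger3 (2.43) and Vipr2 (1.88) farthest to the right and P2ry1 (-1.01) farthest to the left among those that passed.

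The members that passed were followed through each processing choice for β-Mfn1/2DKO against Ctrl. Gipr, Ffar1, Rapgef4 and Gcgr passed in every fit that left out 1 library, and they passed under each other choice but one. That choice used a term for libraries above 40000000 counts, a class that holds all β-Mfn1/2DKO libraries, 2 of β-Mfn2KO and none of the others. Then 1 member passed, Ffar1 (-0.70, adjusted p = 0.0358, edgeR). Gipr had -0.66 (adjusted p = 0.194, edgeR), Gcgr 0.49 (adjusted p = 0.352) and Rapgef4 -0.28 (adjusted p = 0.19) under it, so that for these genes depth and genotype are separated only by the β-Mfn2KO libraries. In that group the libraries above 40000000 counts were all male and the shallower ones were of both sexes, so depth there went partly with sex. When all libraries were drawn down to the smallest total, the 4 members passed.

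**Figure D5:**
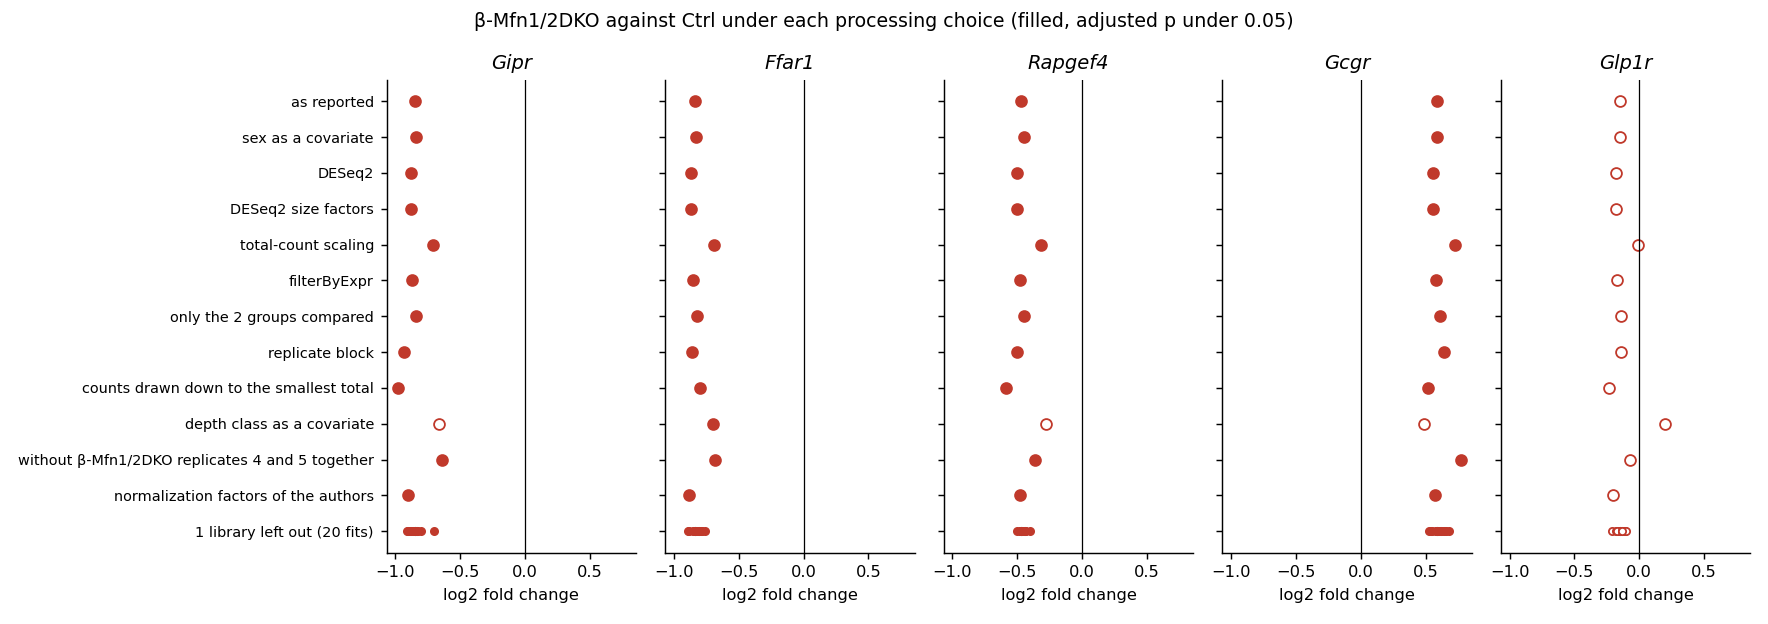
Log2 fold change between β-Mfn1/2DKO and Ctrl of the 4 members that passed and of Glp1r, in 1 row per processing choice, with the 20 fits that each leave out 1 library in the last row; filled points have an adjusted p under 0.05. Gipr, Ffar1 and Rapgef4 stay below 0 and Gcgr above 0 throughout, and open points for Gipr (-0.66), Rapgef4 (-0.28) and Gcgr (0.49) appear in the row with depth class as a covariate, where Glp1r is at 0.20.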

How the data were processed

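Islet RNA was sequenced as paired 151-base reads in 20 libraries. Per the labels and methods, the authors trimmed reads with cutadapt 2.3, checked them with FastQC 0.11.8, aligned them with STAR 2.6.1b to GRCm38, assigned them to genes with RSEM 1.3.1, removed genes without counts and normalized with DESeq2 1.26.0. The deposited raw table holds whole-number counts per gene. The deposited normalized table (signal: depth-normalized counts of the authors) served only to recover their factors. These were taken for each gene in each library, as the raw count divided by the normalized value. Libraries were grouped by their titles. The members and gene lists, and the rules for naming genes, were chosen with earlier results of these data known. The rules named all members, up to 10 pathway genes per direction that passed with a mean of at least 100 counts, and Gnas.

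Raw counts were fitted with edgeR 4.0.16 (R 4.3.3; TMM, quasi-likelihood test, 1 coefficient per group, 20 libraries) and p-values adjusted by Benjamini-Hochberg over 28632 genes; passing means an adjusted p under 0.05. Normalized counts are on the TMM scale at the mean library size. Symbols and exon lengths came from GENCODE for 28579 genes. The closest pair of replicates differed by a chi-square of 7.05 per degree of freedom, so none was a duplicate. The fit was also run on counts simulated from the Ctrl means with few genes changed. That setting cannot show how the fit behaves where many genes change or where the choice of scaling matters. Alternatives were DESeq2 1.42.0, other scalings, a filter, covariates, a replicate block, thinning and left-out libraries. A fit with the normalization factors of the authors was added after the data were seen. One result on a cell type marker list is not reported here.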

Additional observations from a re-analysis of the deposited data

Results flagged for a closer look

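Adcy5 in β-Mfn1KO was set apart because 1 of the 4 libraries lay far from the others, with 104.5 normalized counts against 149.7 to 153.5 in the other 3; the gap was 0.922 of the whole range, above Dixon's critical value of 0.829. It was the only such value among 40 combinations of gene and group, of which chance alone gives about 1 in 20.

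The effect of losing Mfn1 differed with the presence of Mfn2, by the interaction term in edgeR, for Ffar1 (-0.79 on the log2 scale, adjusted p = 0.00242), Rapgef4 (-0.44, adjusted p = 0.00611) and Gipr (-0.70, adjusted p = 0.0496). Gipr lost this call in most fits that left out a library and under several other choices. Rapgef4 lost it with depth class as a covariate (-0.33, adjusted p = 0.0834 in edgeR).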

How the results depend on the processing

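Over 70 log2 fold changes of members and 32 alternatives, 2063 of 2120 values kept their direction and their side of the threshold or changed sign without passing in either fit (80 values); 28 lost the threshold, 29 gained it and 0 reversed past it. With depth class as a covariate, the members passing were 1 in β-Mfn1/2DKO against Ctrl, 0 against β-Mfn1KO and 1 for the interaction, and 9 pathway genes passed (44 as reported); depth class and genotype nearly coincide. By total-count scaling 7 members passed against β-Mfn1KO. Leaving out each library gave 4 members in β-Mfn1/2DKO against Ctrl in all 20 fits, 3 to 4 against β-Mfn2KO, 4 to 5 against β-Mfn1KO, 2 to 3 for the interaction, 0 to 1 between sexes, 0 in each single knockout and 38 to 51 pathway genes; the cause was not tested. Of all genes in β-Mfn1/2DKO against Ctrl, 2745 were higher and 1965 lower as reported, 5393 and 949 by total-count scaling, and 1857 and 1995 with the normalization factors of the authors, added after the data were seen.

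The same replicate number was shared by 27 pairs of libraries from different groups, whose deviations from the group means correlated from -0.102 to 0.579, with 21 above 0.1, and 10 of 20 libraries were most like one with their own number. The numbers follow sex in part and were not taken as pairing. With the replicate block, 4 members and 53 pathway genes passed in β-Mfn1/2DKO against Ctrl, 3 members against β-Mfn2KO, 5 against β-Mfn1KO and 2 for the interaction. In β-Mfn1/2DKO against Ctrl, the 95% intervals of Adcy5 and Adcy8, the members with the fewest counts, were the widest.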
